A study of Mus musculus with 8 samples.

Results

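The genes described here are the core machinery of macroautophagy and its cargo receptors, as transcribed in cultured mouse satellite cells given sal003 or its vehicle. The members are 35 genes taken by symbol; the rule itself uses no measured value, but the set was drawn up with earlier results of these data known. Of these, 34 were found by their symbol in the deposited table of 39017 genes, and Atg101 was found by its Ensembl identifier under an older symbol. All 35 passed the filter on low counts. Satellite cells, the resident stem cells of skeletal muscle, came from the diaphragm and abdominal muscle of adult mice in which 1 allele of Pax3 carries a green fluorescent protein reporter (Pax3GFP/+). There were 4 libraries from cells kept for 4 days in sal003 and 4 from cells kept for 4 days in its vehicle DMSO. Sal003 blocks removal of the phosphate from the translation factor eIF2α. Its dose is labelled 10 µM in the sample attributes, while the treatment protocol gives the same figure in mM. Every library is bulk RNA from a dish, and the labels leave unsaid whether replicates are separate animals or dishes, so p-values speak of the spread between these libraries, which may be technical.

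Macroautophagy wraps cytoplasm in a double membrane, the autophagosome, which then fuses with the lysosome. The ULK kinase complex starts the process, a lipid kinase complex built on Vps34 marks the forming membrane, the scramblase ATG9 and the lipid transfer protein ATG2 enlarge it, and 2 ubiquitin-like systems attach ATG8 proteins (the LC3 and GABARAP families) to it. Receptors such as p62, the product of Sqstm1, tie cargo to the ATG8 proteins. In skeletal muscle autophagy is known for clearing damaged organelles, for keeping satellite cells quiescent and for supporting differentiation of myoblasts. Phosphorylated eIF2α favours translation of the transcription factor ATF4, which in mouse fibroblasts short of amino acids is known to activate several autophagy genes.

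The libraries held 37248830 to 39378523 counts in sal003 and 32753929 to 40234107 counts in DMSO. Values are CPM, counts scaled to a common library size, after TMM scaling, which corrects library totals for differences in composition. DMSO replicate 2 stood apart: its Spearman correlation with the other DMSO libraries was at most 0.949, and it detected 14437 genes where the other libraries detected between 16561 and 18076. Of 10 markers of satellite cells and myoblasts 9 could be tested, and Chodl was at 0 in all libraries. At an edgeR adjusted p below 0.05, 1 of the 9 was higher in sal003 and 3 were lower, where 10.6% and 12.2% of all genes tested were. Pax7 was higher (log2 fold change 0.43), and Des (-1.33), Cdh15 (-0.92) and Itga7 (-0.56) were lower. Markers of fibro-adipogenic, endothelial and immune cells summed, for each cell type on its own, to at most 5.24 CPM in any sal003 library and 5.23 CPM in any DMSO library, with Dcn, Lum, Emcn and Ptprc at 0 in all 8 libraries. Smooth muscle and pericyte markers summed to between 142 and 171 CPM in sal003 and between 184 and 248 CPM in DMSO, nearly all of it from Cspg4.

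The comparison of sal003 with DMSO asks how transcripts differ in satellite cells when dephosphorylation of eIF2α is blocked. In sal003, 8 of the 35 autophagy genes fell and 0 rose. The genes that fell were the membrane scramblase Atg9a, the phosphoinositide reader Wipi1, the lipid kinase subunits Becn1 and Pik3r4, the ATG8 genes Map1lc3a, Gabarap and Gabarapl2, and the cargo receptor Nbr1. The other 27 did not pass the threshold, an edgeR quasi-likelihood adjusted p below 0.05 over all genes tested.

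The 8 genes are 22.9% of the members, where 22.7% of the 15816 genes tested were called in either direction, so the share called was near that of the background. With scaling by total counts alone 5 members were called, 14.3%, where 26.8% of all genes tested were; the calls on Becn1, Pik3r4 and Gabarapl2 ended. With limma-voom and sample quality weights, which count discordant libraries less, 15 members were called, 42.9%, where 28.8% of all genes tested were. Of its 7 added calls, Atg4a, Atg4c, Atg101, Bnip3 and Optn were also added by leaving out DMSO replicate 2. A filter of 10 CPM in 4 libraries leaves out low transcripts, among them Atg10, Atg14, Atg4a and Tfeb. With it 10 members were called, 28.6% of the 35, where 37.8% of the 9120 genes tested were. Of those 9120 genes, 1859 were called lower and 1590 higher. So whether the share of members lay below, near or above this background of both directions turned on the fit and the filter. All member calls were lower, whereas with total counts alone 2878 of the genes tested were higher and 1365 lower. With limma-voom 2150 were higher and 2410 lower. In the main fit, genes called lower made up 12.2% of all genes tested and genes called higher 10.6%, against 22.9% and 0 of the members. The median log2 fold change of the 35 genes was -0.33, while that of all genes tested was -0.0034. Of the 35 estimates 28 were negative, and of those of the 15816 genes tested 7939 were. With total counts alone the estimates of Atg2b, Atg4b, Pik3c3, Gabarapl1 and Sqstm1 turned positive. The lowest estimate in the main fit was -1.05 and the highest 0.23, and the ± after a log2 fold change is its standard error. All sal003 libraries lay below all DMSO libraries for 9 members, or 25.7%, and for 13.7% of all genes tested. All sal003 libraries lay above all DMSO libraries for 0 members and for 13.1% of all genes tested. Summed over the 35 genes, the level was 1370.3 ± 20.9 CPM in sal003 and 1655 ± 19.3 CPM in DMSO (SD, n = 4 each). As a share of raw counts, without TMM scaling, the sum was 0.146% ± 0.00241 in sal003 and 0.156% ± 0.00361 in DMSO. In bulk RNA, fewer cells of a type and less RNA per cell cannot be told apart.

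**Figure D1:**
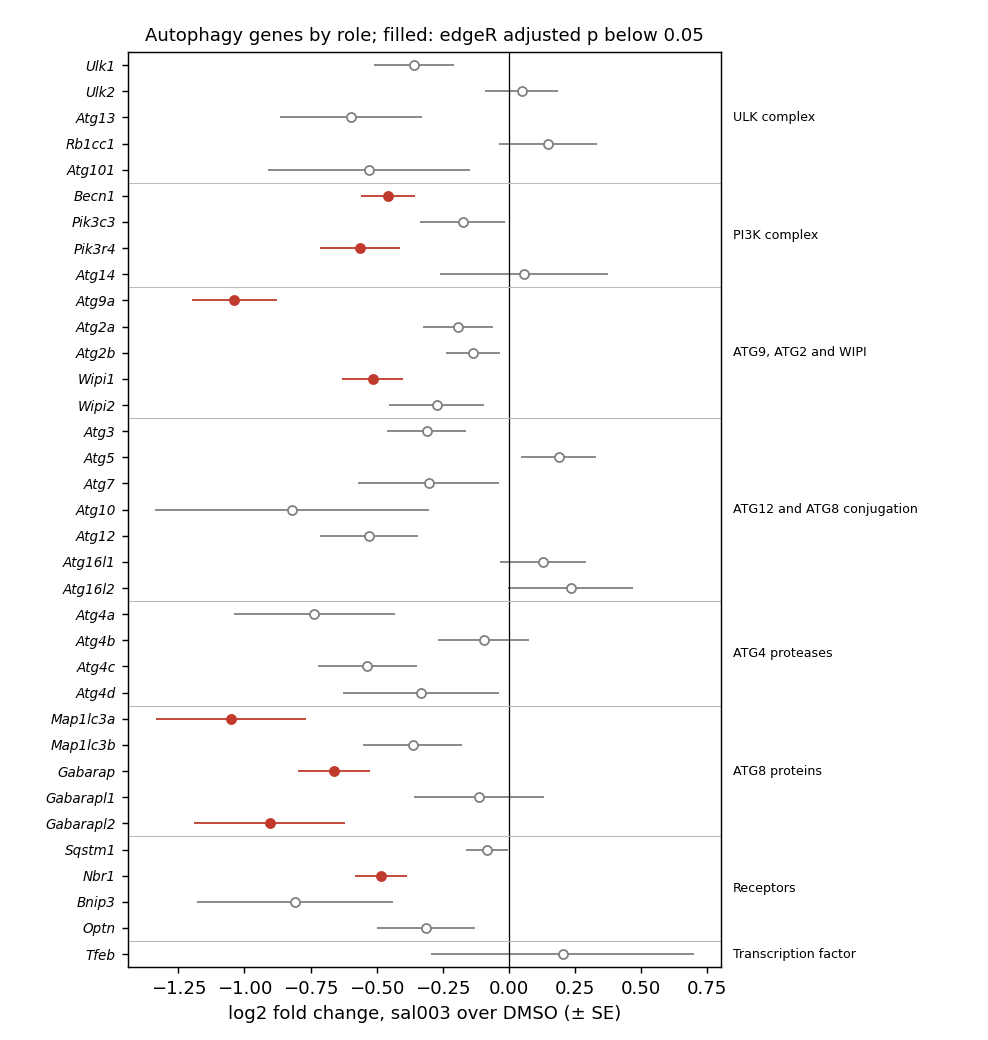
Log2 fold change of each autophagy gene, sal003 over DMSO, with its standard error, grouped by role; filled points passed an edgeR adjusted p of 0.05. The 8 filled points all lie left of 0, and the estimates run from -1.05 to 0.23.

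Levels per length of exon differed widely between the genes. Sqstm1 was the most abundant by far, at 77.5 ± 2.93 CPM per kb in sal003 and 82.0 ± 5.01 CPM per kb in DMSO (SD, n = 4 each). Gabarap came second in both conditions, at 17.1 ± 1.70 CPM per kb in sal003 and 27.1 ± 3.02 CPM per kb in DMSO. In sal003 the next 4 places were taken by Wipi1 (16.3 ± 1.81 CPM per kb), Atg5 (16.0 ± 1.64), Nbr1 (15.3 ± 1.39) and Optn (14.7 ± 1.58), whose neighbouring values lie within their SD. Tfeb was the least abundant member, at 0.853 ± 0.213 CPM per kb in sal003 and 0.740 ± 0.387 CPM per kb in DMSO. Raw counts of the members ran from 33 to 10615 per library. Exon lengths came from GENCODE M21, which may differ from the annotation the reads were counted on.

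**Figure D2:**
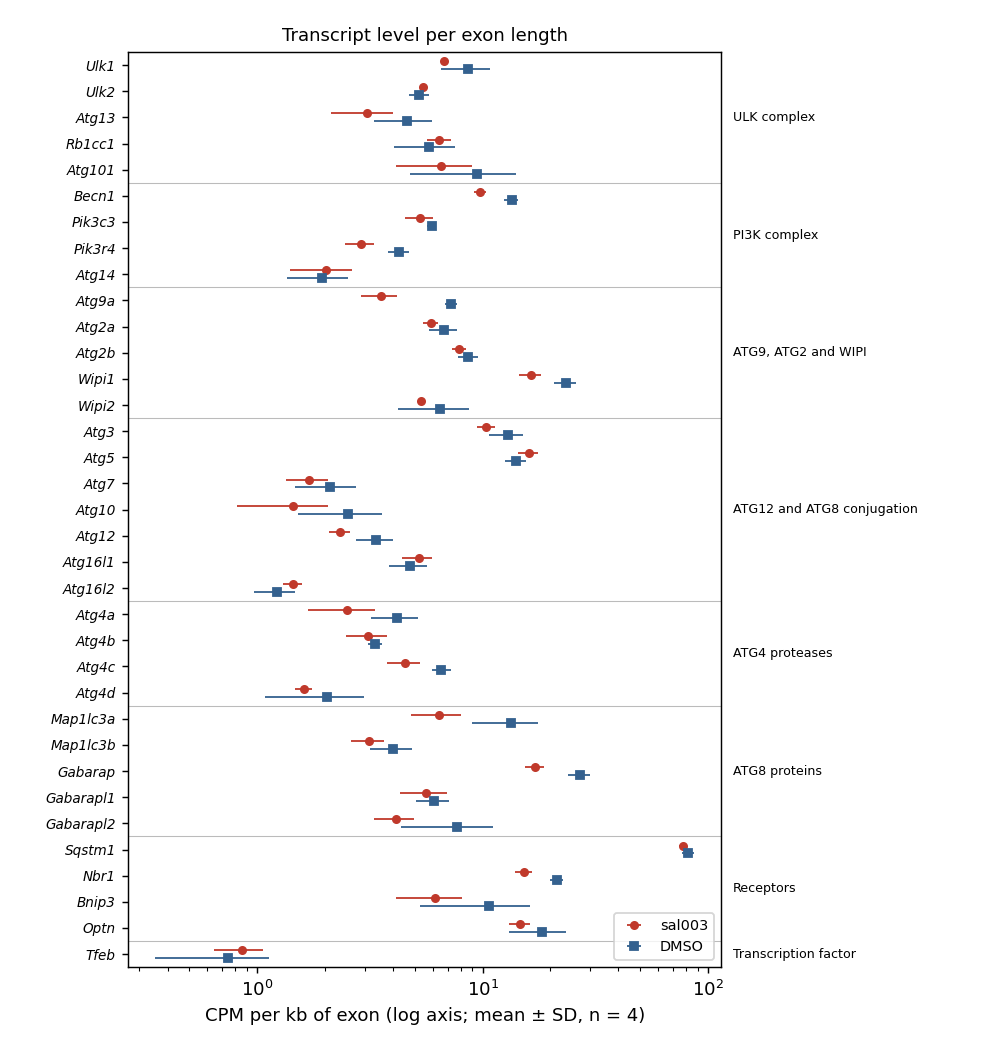
Mean level of each autophagy gene in CPM per kb of exon on a log axis, with SD over 4 libraries, sal003 (circles) above DMSO (squares). Sqstm1 stands apart at 77.5 in sal003 and 82.0 in DMSO, and Tfeb is lowest in both.

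Of the 5 genes of the ULK complex, which receives signals from mTORC1 and AMPK and starts autophagosome formation, 0 passed the threshold. The kinase Ulk1 ran from 42.6 to 45.3 CPM in sal003 and from 46.9 to 76.1 CPM in DMSO. The groups did not overlap, but the highest DMSO value was replicate 2, and the log2 fold change of -0.36 ± 0.15 did not pass (edgeR adjusted p = 0.112). Without DMSO replicate 2 it was -0.16. Its paralog Ulk2 had a log2 fold change of 0.05 ± 0.14 (95% interval -0.25 to 0.34). The scaffold Rb1cc1, which encodes FIP200, had 0.15 ± 0.19, the adaptor Atg13 had -0.60 ± 0.27 (edgeR adjusted p = 0.138), and its partner Atg101 had -0.53 ± 0.38 (edgeR adjusted p = 0.399). Atg101 spread from 6.07 to 14.5 CPM in sal003 and from 5.63 to 22.8 CPM in DMSO, and with DMSO replicate 2, its lowest DMSO library, left out it was -0.79 and past the threshold (edgeR adjusted p = 0.0324). An annotated pseudogene, Gm13961, resembles Rb1cc1 at 94.8% identity over 4807 bases, so reads of the pair may be shared.

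In the Vps34 complex, 2 of 4 genes fell, where 12.2% of all genes tested fell. Roles with so few genes do not allow their shares to be compared with that background. Becn1, which encodes the regulatory subunit Beclin 1 (chromosome 11, 101285952 to 101302286, minus strand of mm10), stood at 70.1, 62.8, 72.4 and 71.3 CPM in sal003 and at 95.4, 104, 88.6 and 91.7 CPM in DMSO. Each sal003 library was below each DMSO library, with a gap between the groups wider than the spread within sal003. Its log2 fold change was -0.46 ± 0.10 (edgeR adjusted p = 0.00363). Exons of Cntd1 on the opposite strand cover 43.9% of Becn1's exon bases, and whether strand was used in counting is not given in the sources used here. Cntd1 itself had at most 38 counts in any sal003 library and 32 in any DMSO library.

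Pik3r4, the pseudokinase subunit Vps15 (chromosome 9, 105642978 to 105687657, plus strand), stood at 27.4, 30.3, 31.2 and 22.2 CPM in sal003 and at 40.2, 47.4, 39.3 and 37.3 CPM in DMSO. The groups did not overlap, and sal003 replicate 4 was the lowest library. The log2 fold change was -0.56 ± 0.15 (edgeR adjusted p = 0.0128), and the call was lost without sal003 replicate 4 (edgeR adjusted p = 0.0501). The catalytic subunit Pik3c3 had a log2 fold change of -0.17 ± 0.16, with a 95% interval of -0.52 to 0.17. Atg14, the subunit that directs the complex to autophagy, had 0.06 ± 0.32 (95% interval -0.62 to 0.73).

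Among the genes that enlarge the membrane, 2 of 5 fell, where 12.2% of all genes tested fell. Atg9a, the scramblase carried by the vesicles that seed the autophagosome, had the lowest adjusted p of the 35 genes (chromosome 1, 75180860 to 75192196, minus strand). It stood at 16.2, 18.3, 23.7 and 23.3 CPM in sal003 and at 44.3, 43.5, 39.6 and 39.98 CPM in DMSO. The highest sal003 library lay well under the lowest DMSO library, and the log2 fold change was -1.04 ± 0.16 (edgeR adjusted p = 0.000161), a level 2.05-fold lower in sal003. It was the 1 member that passed a test against a change of 1.5-fold. That is 2.86% of the members, where 6.34% of all genes tested passed it. In GENCODE M21 the transcript Gm29253 on the same strand shares 31.8% of Atg9a's exon bases, so part of the reads may belong to it.

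Wipi1, which binds phosphatidylinositol 3-phosphate on the forming membrane (chromosome 11, 109573331 to 109611967, minus strand), stood at 71.1, 83.4, 69.0 and 64.8 CPM in sal003 and at 110.4, 88.1, 98.9 and 115 CPM in DMSO. The groups did not overlap, although sal003 replicate 2 and DMSO replicate 2 came close to each other. The log2 fold change was -0.52 ± 0.12 (edgeR adjusted p = 0.00396). Its paralog Wipi2, which recruits ATG16L1, had -0.27 ± 0.18 (edgeR adjusted p = 0.344), and DMSO replicate 2 was at 103 CPM where the other DMSO libraries were between 53.8 and 59.9. Without that library the estimate for Wipi2 was 0.01. The lipid transfer genes Atg2a and Atg2b had log2 fold changes of -0.19 ± 0.13 and -0.14 ± 0.10.

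**Figure D3:**
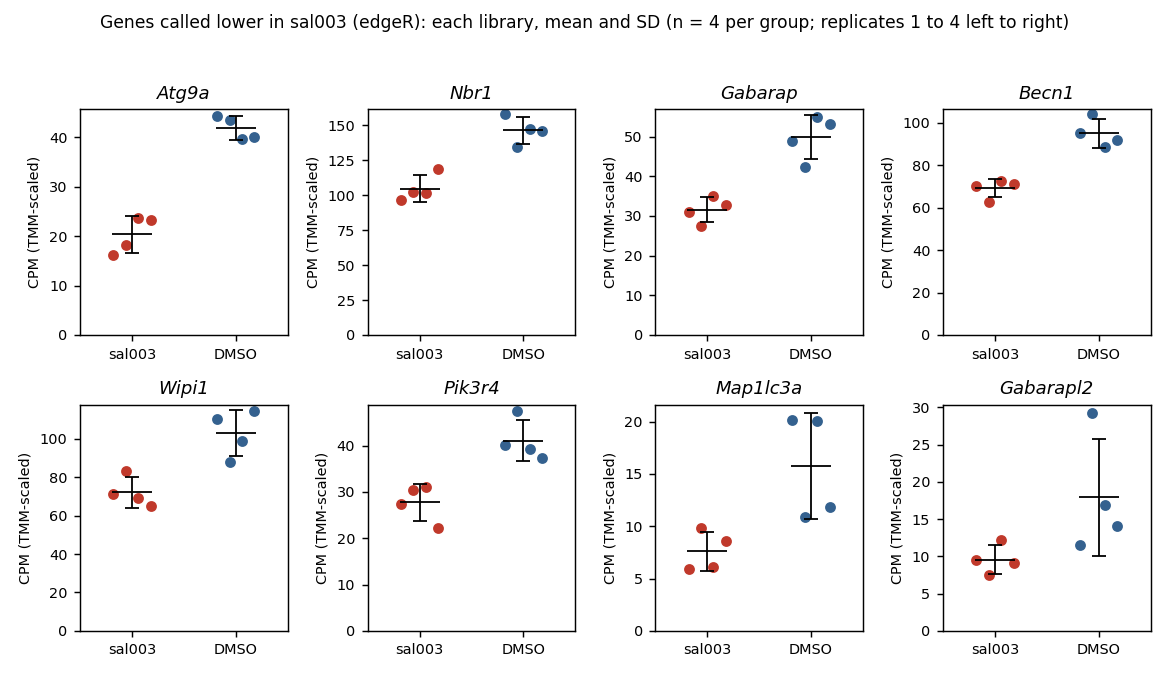
CPM of the 8 autophagy genes called lower in sal003, each library as a point with the group mean and SD (n = 4), sal003 left and DMSO right. The groups are separate in 7 panels and overlap for Gabarapl2, where DMSO replicate 2 is at 29.2 CPM.

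None of the 7 genes of the conjugation systems passed the threshold, though Atg12 came close. At an unadjusted p below 0.05, edgeR gave 13 of the 35 members, 37.1%, and 31.9% of all genes tested. The ubiquitin-like Atg12 stood at 16.8, 20.03, 19.2 and 15.9 CPM in sal003 and at 30.0, 27.4, 19.0 and 27.3 CPM in DMSO. DMSO replicate 3 lay among the sal003 values, and the log2 fold change of -0.53 ± 0.18 missed the threshold (edgeR adjusted p = 0.0507). Leaving that library out gave -0.64, past the threshold (edgeR adjusted p = 0.0220), and Atg12 also passed in 5 of the 12 alternatives that kept all libraries, DESeq2 among them (adjusted p = 0.0421). The E2-like enzyme Atg3 had -0.31 ± 0.15 (edgeR adjusted p = 0.171), the E1-like enzyme Atg7 had -0.30 ± 0.27 and the E2-like enzyme Atg10 had -0.82 ± 0.52. Atg10 was a low transcript, at 2.47 ± 1.07 CPM in sal003 and 4.36 ± 1.76 CPM in DMSO (SD, n = 4 each), and its 95% interval ran from -1.92 to 0.28. Atg5, the acceptor of ATG12, had 0.19 ± 0.14, Atg16l1 had 0.13 ± 0.16 and Atg16l2 had 0.23 ± 0.24.

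Promoter windows from RefSeq (GRCm38.p6, 250 bases before to 50 after the annotated start) were matched to 29 of the 35 members, 6 of them called lower. They were searched on both strands for GTCACGTG, the core of the CLEAR element that TFEB binds, and for CACGTG, the E-box that lies within it. The CLEAR core was found in 3 member windows, 10.3%, and in 4.45% of the windows of all tested genes with an entry. The E-box was found in 5 member windows, 17.2%, and in 10.5% of those of tested genes. Median GC content was 61.7% in member windows and 52.7% in all RefSeq windows searched, so these shares are not matched for GC. Neither the CLEAR core nor the E-box was found in the windows of the 6 genes called lower, and Becn1 and Map1lc3a had no window. At background shares this low, 0 of 6 windows cannot show a lack of either sequence. The windows with a CLEAR core belonged to Atg3, Atg7 and Atg14, none of which passed the test. RefSeq's start lay within 250 bases of the first base of the GENCODE M21 gene for 22 of the 29 windows. Those of Atg7 and Atg14 were among the 7 others, with starts 27999 and 2215 bases inside the gene, so their sites are not before the first annotated start. Wipi1 and Nbr1, both called lower, were also among them, with starts 578 and 505 bases inside the gene. The stretch before the start of Atg3, with the core at 96 and again at 73 bases before RefSeq's start, is printed because it holds the site in both copies; capitals mark the CLEAR core.
Atg3, chr16:45158719-45158778, plus strand: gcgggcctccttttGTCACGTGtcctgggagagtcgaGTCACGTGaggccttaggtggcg
The core TGATGNAA of the element bound by ATF4 with C/EBP factors was found in 0 member windows and in 2.10% of windows of tested genes. The E-box CAGCTG, a sequence bound by myogenic factors, was found in 5 member windows, 17.2%, and in 15.3% of those of tested genes; Nbr1 was the member among them that was called lower. These are letter matches in a short window and not measured binding. At a share as low as 2.10%, 0 of 29 windows cannot show a lack of the ATF4 element.

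The ATG4 proteases, which trim ATG8 proteins before conjugation and release them afterwards, had 4 negative estimates and 0 calls. Atg4c stood at 14.2, 13.1, 14.7 and 18.9 CPM in sal003 and at 20.03, 21.1, 21.9 and 24.99 CPM in DMSO. The groups did not overlap, but the log2 fold change of -0.53 ± 0.19 missed the threshold (edgeR adjusted p = 0.0523) and passed without DMSO replicate 2 (edgeR adjusted p = 0.0344) or without sal003 replicate 4 (0.0329). Atg4c also passed in 5 of the 12 alternatives that kept all libraries, with adjusted p = 0.0403 under DESeq2 and 0.0132 under limma-voom. Atg4a had -0.74 ± 0.30 (edgeR adjusted p = 0.103); with DMSO replicate 2 left out it was -0.83 and past the threshold (edgeR adjusted p = 0.0328). Atg4d had -0.33 ± 0.30 and Atg4b, the most active member of the family in mammals, had -0.09 ± 0.17.

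All 5 ATG8 genes had negative estimates and 3 of them fell, where 12.2% of all genes tested fell. The calls on Map1lc3a and Gabarapl2 were lost in some fits without 1 library. Gabarap (chromosome 11, 69991143 to 69994951, plus strand) stood at 31.1, 27.5, 34.9 and 32.7 CPM in sal003 and at 49.0, 42.5, 55.0 and 53.2 CPM in DMSO. The groups were clearly apart, and the log2 fold change was -0.66 ± 0.14 (edgeR adjusted p = 0.00213). Its protein is a membrane anchor for cargo and also binds the ULK complex.

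Map1lc3a, one of the LC3 genes (chromosome 2, 155276297 to 155278073, plus strand), stood at 5.88, 9.80, 6.14 and 8.55 CPM in sal003 and at 20.1, 10.9, 20.1 and 11.8 CPM in DMSO. DMSO fell into a high pair, replicates 1 and 3, and a low pair, and the low pair was just above the highest sal003 library. The log2 fold change was -1.05 ± 0.28 (edgeR adjusted p = 0.0130), and the call was lost without DMSO replicate 1 (edgeR adjusted p = 0.0568) or replicate 3 (0.0560). Map1lc3b, whose protein is the usual laboratory marker of autophagosomes, had -0.36 ± 0.19 (edgeR adjusted p = 0.201), at 23.5 ± 3.82 CPM in sal003 and 30.2 ± 6.45 CPM in DMSO (SD, n = 4 each).

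Gabarapl2, also known as GATE-16 (chromosome 8, 111940703 to 111953612, plus strand), stood at 9.51, 7.45, 12.1 and 9.16 CPM in sal003 and at 11.5, 29.2, 16.9 and 14.1 CPM in DMSO. It was the called member whose groups overlapped, since sal003 replicate 3 exceeded DMSO replicate 1, and DMSO replicate 2 was the highest library. The log2 fold change was -0.90 ± 0.29 (edgeR adjusted p = 0.0309), it was -0.55 without DMSO replicate 2 (edgeR adjusted p = 0.0947), and the call held in 3 of the 8 fits without 1 library. It was also lost without DMSO replicate 3 (adjusted p = 0.0542) or sal003 replicates 1 (0.0744), 2 (0.0995) or 4 (0.0758), and with a replicate block (0.0629). There are 6 pseudogenes with at least 90% identity to Gabarapl2 over at least 200 bases, 5 of them not in the table, so its reads may be shared. Gabarapl1 had a log2 fold change of -0.11 ± 0.24 (95% interval -0.63 to 0.41).

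Whether paralogs differed in their response was tested on the log2 ratio of each pair in each library. Over 20 pairs within the ULK, ATG2, ATG16L, WIPI, ATG4 and ATG8 families, the smallest exact permutation p was 0.0286, the lowest that 4 against 4 libraries allow, and it was reached by Ulk1 over Ulk2. That ratio was 0.44 ± 0.06 in sal003 and 0.82 ± 0.27 in DMSO on the log2 scale (SD, n = 4 each), with an exact permutation p of 0.286 after Benjamini-Hochberg adjustment. For Map1lc3a over Map1lc3b the difference in log2 ratio was -0.67, sal003 minus DMSO (exact permutation p = 0.114, 0.286 adjusted). With 4 libraries a group, no single pair could pass after adjustment over 20 pairs, so these tests leave the question of a difference between paralogs unanswered.

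Of the 4 cargo receptors, 1 fell, where 12.2% of all genes tested fell. Nbr1, a ubiquitin-binding receptor of protein aggregates and peroxisomes (chromosome 11, 101552149 to 101581951, plus strand), stood at 96.7, 103, 101 and 119 CPM in sal003 and at 158, 134, 147 and 146 CPM in DMSO. The groups did not overlap, and the log2 fold change was -0.48 ± 0.10 (edgeR adjusted p = 0.00170). Sqstm1, whose protein p62 works with NBR1 and is itself degraded by autophagy, stood at 252, 252, 264 and 272 CPM in sal003 and at 298, 263, 278 and 261 CPM in DMSO. The groups overlapped, and its log2 fold change of -0.08 ± 0.08 had a 95% interval from -0.25 to 0.09. Exons of Mrnip on the opposite strand cover 17.3% of its exon bases.

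The mitophagy receptor Bnip3 varied widely within each condition. It stood at 12.2, 8.73, 15.4 and 19.3 CPM in sal003 and at 18.9, 9.49, 32.8 and 35.9 CPM in DMSO. DMSO replicate 2 lay just above the lowest sal003 library, so the groups overlapped, and the log2 fold change was -0.81 ± 0.37 (edgeR adjusted p = 0.157). Without DMSO replicate 2 it was -1.07 and passed (edgeR adjusted p = 0.00165). Optn, a receptor of damaged mitochondria and bacteria, also moved with DMSO replicate 2. It was between 48.2 and 62.6 CPM in sal003, while DMSO replicate 2 was at 39.6 and the other DMSO libraries between 78.1 and 78.5 CPM. Its log2 fold change was -0.31 ± 0.19 (edgeR adjusted p = 0.288), and without DMSO replicate 2 it was -0.49 and passed (edgeR adjusted p = 0.00155). Bnip3 has 4 annotated pseudogenes of at least 90% identity, of which Gm16439 reached 309 counts in a sal003 library and 477 in a DMSO library, so reads may be shared.

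Tfeb, the transcription factor that activates autophagy and lysosome genes, was scarce. It stood at 5.56, 5.01, 3.08 and 5.69 CPM in sal003 and at 4.99, 0.979, 4.91 and 5.92 CPM in DMSO. DMSO replicate 2 was far under the rest, and the log2 fold change of 0.20 ± 0.50 had a 95% interval from -0.86 to 1.26, so a change of 1.5-fold either way was not detectable at this spread. TFEB is controlled mainly by its phosphorylation and location in the cell, which RNA does not show.

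A subset of 12 members has been reported to depend on ATF4 or on CHOP, the product of Ddit3, in mouse fibroblasts. Of these, 0 rose and 4 fell: Nbr1, Gabarap, Becn1 and Gabarapl2, with the values given above. That is 33.3% called lower, beside 22.9% of all 35 members and 12.2% of all genes tested. The 12 genes are part of the 35 and too few for their share to be compared with either. The call on Gabarapl2 held in 3 of the 8 fits without 1 library. The median log2 fold change of the 12 was -0.41, beside -0.33 for all 35 members and -0.0034 for all genes tested. Transcripts of the factors themselves did not pass: Atf4 was at 270.0 ± 31.4 CPM in sal003 and 317 ± 20.2 CPM in DMSO (log2 fold change -0.23 ± 0.10, edgeR adjusted p = 0.104). Ddit3 was at 2.63 ± 0.657 CPM in sal003 and 5.43 ± 2.79 CPM in DMSO (SD, n = 4 each; log2 fold change -1.05 ± 0.48, edgeR adjusted p = 0.145).

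**Figure D4:**
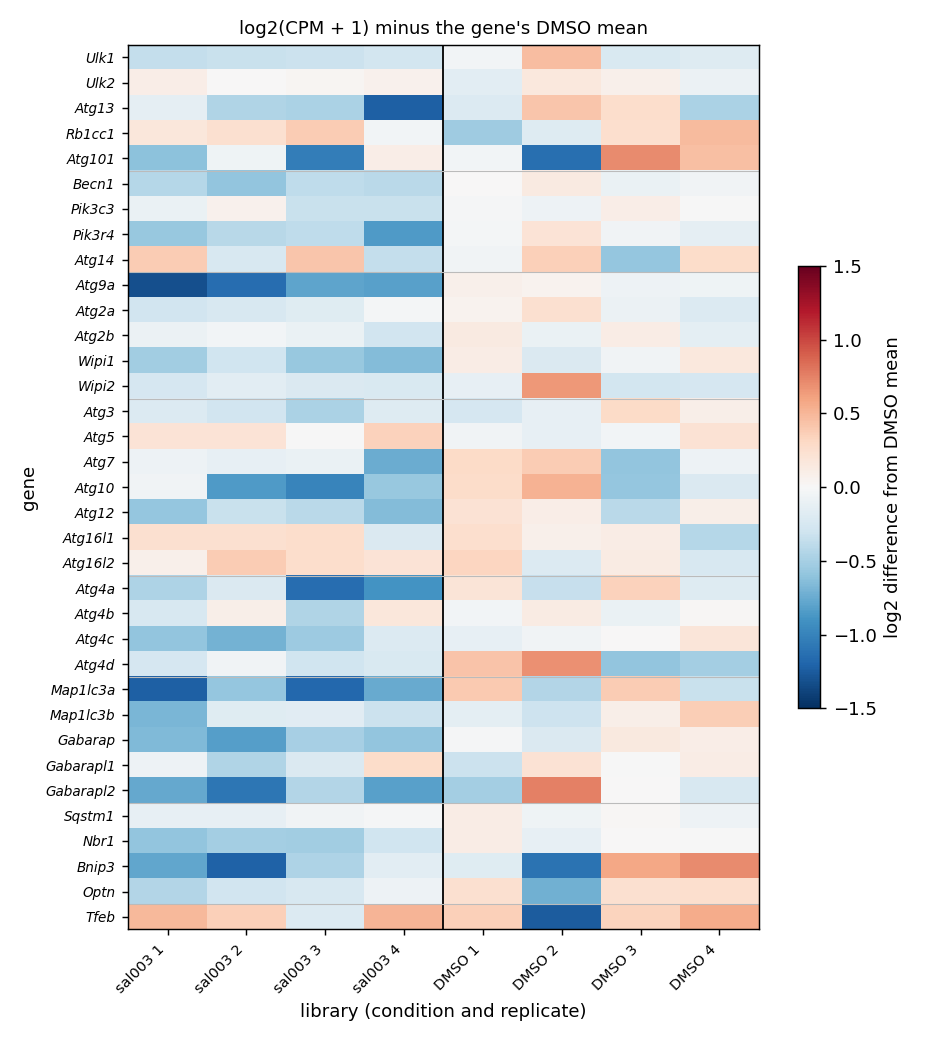
Log2(CPM + 1) of each autophagy gene in each library, minus the gene's mean over the 4 DMSO libraries, with sal003 libraries left and DMSO libraries right of the line. Blue prevails in the 4 sal003 columns, and DMSO replicate 2 is the highest DMSO library for 14 genes and the lowest for 12.

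Across the 35 genes, DMSO replicate 2 was the highest DMSO library for 14 and the lowest for 12. Without it, 12 members were called lower and 0 higher: 7 of the 8 remained, Gabarapl2 was lost, and Atg4a, Atg4c, Atg101, Bnip3 and Optn were added. The median log2 fold change was then -0.34. In that fit 34.3% of the members and 27.0% of all genes tested were called.

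Genes that act beside these members were read from 4 lists. Of 34 accessory factors of autophagosome formation and fusion, 11 fell (32.4%) and 0 rose, where 12.2% of all genes tested fell and 10.6% rose, and the median log2 fold change was -0.24. They included Trp53inp2, a nuclear protein that carries LC3 to the cytoplasm, at 35.8 ± 2.80 CPM in sal003 and 91.6 ± 7.97 CPM in DMSO (SD, n = 4 each; log2 fold change -1.35 ± 0.12). Its p53-induced relative Trp53inp1 had -1.80 ± 0.19, and Tecpr1, which aids fusion with the lysosome, had -0.77 ± 0.14.

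Of 29 further receptors and mitophagy factors 26 could be tested, and of these 7 fell (26.9%) and 3 rose (11.5%), against the same 12.2% and 10.6% of all genes tested, with a median of -0.18. The share that rose was near the background. Calcoco1, a receptor of the endoplasmic reticulum, was at 51.0 ± 5.17 CPM in sal003 and 134 ± 18.3 CPM in DMSO (log2 fold change -1.39 ± 0.12). The receptors Sec62 (-0.83 ± 0.12) and Ccpg1 (-1.10 ± 0.18), which also serve the endoplasmic reticulum, fell too. Those that rose were the mitochondrial prohibitin Phb2 (0.57 ± 0.11), the tubule receptor Atl3 (0.62 ± 0.16) and the ubiquitin receptor Tax1bp1 (0.34 ± 0.12, edgeR adjusted p = 0.0485).

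Of 54 lysosomal genes, 19 fell (35.2%) and 2 rose (3.70%), again beside 12.2% and 10.6% of all genes tested, with a median of -0.25. The 21 calls became 13 with total counts alone and ran from 14 to 20 when 1 library was left out. Their summed level was 2436 to 2497 CPM in sal003 and 2909 to 3251 CPM in DMSO. The protease Ctsd was at 156 ± 6.46 CPM in sal003 and 243 ± 12.3 CPM in DMSO (SD, n = 4 each; log2 fold change -0.64 ± 0.08). The glycogen-degrading enzyme Gaa had -1.29 ± 0.18 and the proton pump subunit Atp6v0a1 had -0.84 ± 0.12. Another protease, Ctsl, rose (0.45 ± 0.09), as did the pump subunit Atp6v1g1 (0.48 ± 0.12).

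Of 38 genes of the TFEB family, mTORC1 and AMPK, 12 fell (31.6%) and 2 rose (5.26%), beside 12.2% and 10.6% of all genes tested, with a median of -0.25. The muscle AMPK subunit Prkag3 was at 11.7 ± 2.60 CPM in sal003 and 71.7 ± 16.9 CPM in DMSO (SD, n = 4 each; log2 fold change -2.61 ± 0.20). Deptor, an inhibitor of mTOR, had -0.88 ± 0.08 and Tsc2, which restrains mTORC1, had -0.80 ± 0.10. The folliculin partner Fnip2 rose (1.06 ± 0.16), and so did the small GTPase Rragb (2.80 ± 0.89, edgeR adjusted p = 0.0322), at 4.44 ± 1.39 CPM in sal003 and 0.636 ± 0.497 CPM in DMSO.

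Differentiation and proliferation moved with the same comparison. All 21 contractile and fusion genes tested fell, where 12.2% of all genes tested did. Their summed level was 19058 to 22121 CPM in sal003 and 64983 to 94752 CPM in DMSO. All 20 proliferation genes rose, where 10.6% of all genes tested did. Their summed level was 5782 to 6120.3 CPM in sal003 and 2516 to 3128 CPM in DMSO. Both lists were chosen with earlier results of these data known, so their counts are not independent evidence of a change of state. The members changed far less than either list, whose medians were -2.38 and 1.05 on the log2 scale. The part that the differentiation state of the cultures has in the values of the autophagy genes was not tested. Since both lists separate the conditions in every library, state and treatment cannot be told apart here.

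**Figure D5:**
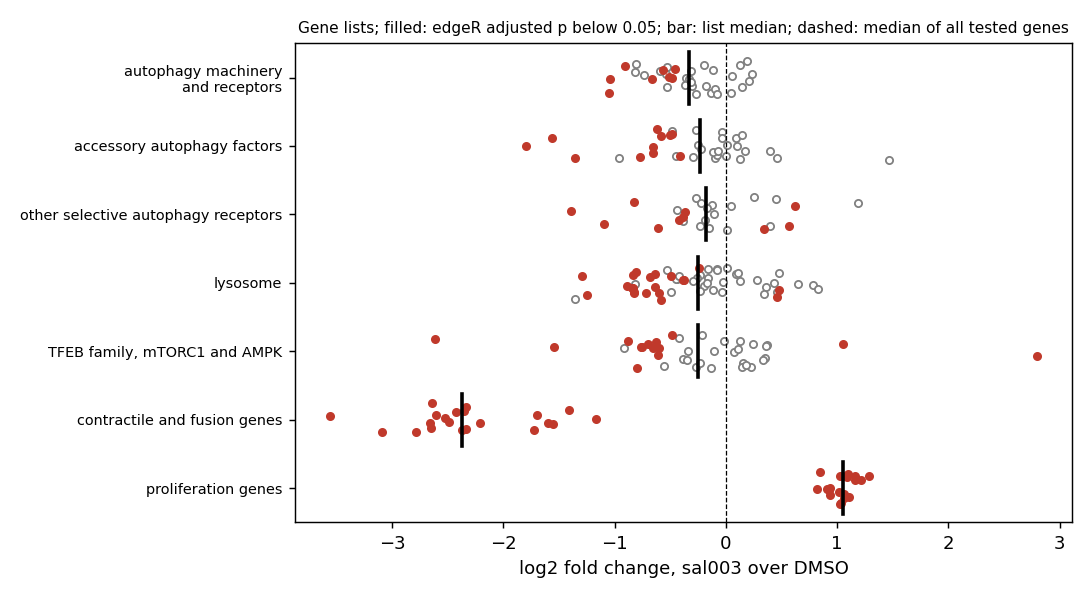
Log2 fold change, sal003 over DMSO, of every tested gene in the autophagy set and in 6 further lists; filled points passed an edgeR adjusted p of 0.05, bars are list medians and the dashed line is the median of all genes tested. The autophagy median is -0.33, between those of the contractile (-2.38) and proliferation (1.05) lists.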

How the data were processed

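The authors deposited whole-number counts per gene for 8 libraries, with Ensembl identifiers and symbols. Per the labels' protocols, RNA was cleared of ribosomal and mitochondrial transcripts before stranded SMARTer library preparation. The submitters' processing notes name the mm10 build, featureCounts 1.4.4, STAR 2.3.0e and Trimmomatic 0.32. How strand and shared reads were handled is not given in the sources used here. Between 75.6% and 83.4% of counts from 1 to 20 were even, so halved counts were one alternative.

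In R 4.3.3 with edgeR 4.0.16, genes were kept by filterByExpr (minimum count 10, minimum total 15), scaled by TMM and tested by a quasi-likelihood model (robust, condition alone), two-sided, with Benjamini-Hochberg adjustment over all tested genes. The SE is the log2 fold change divided by the root of F. The fit was tested on simulated data. Alternatives used other scaling and filters, DESeq2 1.42.0 and limma-voom with sample quality weights (limma 3.58.1). Others were a replicate block, halved counts, stricter thresholds and leaving out each library. Scaling by total counts alone was added after seeing the data. All members are named; of each further list, up to 3 genes called in each direction are named in order of p. Members, lists and tests were chosen with earlier results of these data known.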

Additional observations from a re-analysis of the deposited data

Results flagged for a closer look

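In 4 of the 70 sets of 4 libraries examined (35 genes in 2 conditions), 1 library lay far from the other 3, past Dixon's 95% critical value for the gap over the range, where chance gives about 1 in 20. In sal003 these were Atg7, at 8.06 CPM in replicate 4 and between 12.9 and 13.4 CPM in the others, and Atg16l1, at 38.6 CPM in replicate 4 and between 53.5 and 54.5 CPM in the others. In DMSO they were Wipi2, at 103 CPM in replicate 2 and between 53.8 and 59.9 CPM in the others, and Optn, at 39.6 CPM in replicate 2 and between 78.1 and 78.5 CPM in the others. Their causes were not tested.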

How the results depend on the processing

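The members' median log2 fold change was negative under every alternative run, and 0 members were called higher. The count of members called, 8, became 5 with total counts alone or at an adjusted p of 0.01. It became 15 with limma-voom and 1 against a 1.5-fold change, and ran from 7 to 12 when 1 library was left out. At an adjusted p of 0.01, 14.3% of the members and 14.6% of all genes tested were called. Against a 1.5-fold change the shares were 2.86% and 6.34%. Without 1 library they ran from 20% to 34.3% of the members and from 17.6% to 27% of all genes tested. The median, -0.33, became -0.17 with total counts alone, -0.37 with the filter of 10 CPM and -0.38 with limma-voom, and ran from -0.37 to -0.33 without 1 library. With total counts alone the median of all genes moved to 0.17, so the members' median relative to it was -0.34, and 2878 genes were higher and 1365 lower, against 1671 and 1923. That scaling ended the calls on Becn1 (edgeR adjusted p = 0.0615), Pik3r4 (0.0842) and Gabarapl2 (0.0728). The count over all genes, 3594, became 2308 at 0.01 and 1003 against 1.5-fold, and ran from 2883 to 4471 without 1 library. Calls in the further lists, 97, became 49 against 1.5-fold and ran from 82 to 99 without 1 library. Correlations gave no clear sign of pairing by replicate number: same-numbered ones ran from -0.02 to 0.08 and the others from -0.08 to 0.08. In all, 3 of 8 libraries were closest to their own number. Such weak correlations cannot show whether same-numbered libraries shared an animal or batch. The replicate block gave 8 members and 3430 genes called, with Gabarapl2 lost and Bnip3 gained. Atg10, Atg14, Atg4a and Tfeb did not pass the filter of 10 CPM. Tfeb and Atg10 had the lowest counts per library, and their intervals are wide.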
